A study of Homo sapiens with 8 samples.

Results

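The genes described here are 33 genes of cholesterol and fatty acid synthesis, taken by symbol from a table of 17649 genes measured in MDA-MB-231 cells. All 33 were found in the table, each in 1 row. They comprise 4 genes of the SREBP system, 7 enzymes of the mevalonate and isoprenoid steps, 3 enzymes that make squalene and lanosterol, 8 enzymes from lanosterol to cholesterol, the sterol carrier STARD4, 7 genes of fatty acid synthesis and desaturation and 3 targets of the liver X receptors (LXR). MDA-MB-231, an established line of human breast cancer, lacks the estrogen receptor. RNA-Seq was performed on 4 libraries of cells exposed to 1 µM N-(1-carboxymethyl)-L-lysine (CML), an advanced glycation end product that forms when sugars react with lysine, for 48 hours in low-glucose medium, and on 4 control libraries of the same line that received PBS instead. The comparison asks whether expression of these genes differed after CML exposure.

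Cells regulate the synthesis of cholesterol and fatty acids through the SREBP transcription factors, which are made as membrane proteins of the endoplasmic reticulum. SCAP carries them to the Golgi for cleavage when sterols are low, and INSIG1 holds SCAP back when sterols are high, so that transcripts of the synthesis enzymes rise together when sterols are low and fall together when they are high. LXR responds to oxidised sterols and raises genes of cholesterol export and of SREBF1, so the LXR targets and the synthesis enzymes often move in opposite directions. Breast cancer cells in culture commonly run both pathways at high rates to build membranes.

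The expression values are normalized read counts, in CPM, as the authors deposited them. The paper's methods describe CPM computed in edgeR with TMM normalization factors. The estimated reads per library came to between 16161809 and 18954815, with medians of 16647381 in control and 16927570 in CML-exposed cells, and 1 read counted for 0.0535 to 0.0622 CPM. All 8 epithelial and mesenchymal markers listed for the line were expressed, summing to between 7771 and 8370 CPM per library. Of 4 measured genes listed as absent from the line, PGR (at or under 0.114 CPM, with 0 in some libraries) and CDH1 (at or under 0.954 CPM) were low, while ERBB2 was at 44.1 to 54.4 CPM and EPCAM at 12.7 to 16.3 CPM. Of 3 leukocyte markers, PTPRC (at or under 0.650 CPM) and LYZ (at or under 1.37 CPM) were low and CD68 was at 152 to 181 CPM. Of 3 endothelial markers, VWF (at or under 0.747 CPM) and PECAM1 (at or under 3.84 CPM) were low and KDR was at 25.4 to 30.7 CPM. Both libraries numbered 4 stood apart from the others in how their values varied with GC content, and results that rest on them are given with and without them below. In bulk RNA, fewer cells of a type and less RNA per cell cannot be told apart.

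Promoter windows of 28 of the 33 genes were read from RefSeq (GRCh38.p14), each with 250 bases before the transcription start and 50 after it. Some genes have more than 1 window, such as IDI1 and ACACA with 3 each. For every gene only the first listed window was read, so matches in other windows are not counted. The letters CCAAT, the site of the factor NF-Y that acts beside SREBP, occurred on either strand in 18 of the 28 windows (64.3%), compared with 35.7% of all 27305 promoters and 37.1% of the 9815 promoters of genes that averaged 1 CPM or more. GGGCGG, the GC box bound by SP1, occurred in 26 of 28 windows (92.9%), compared with 44.6% of all promoters and 70.7% of those of expressed genes. CACGTG, an E-box that SREBP-1 can bind, occurred in 5 of 28 (17.9%), against 7.4% and 10.2%. CACCCCAC, the core of a sterol regulatory element, was found in 2 of 28 (7.1%), in SREBF2 and ABCA1, against 2.7% and 2.5%. These matches are letters in a window and no measure of binding. The 250 bases upstream of 4 genes are shown because SREBF2 holds the sterol element core and because INSIG1, HSD17B7 and SCD carry differences described below. Capitals mark CACCCCAC, CCAAT and CACGTG or their reverse complements. The windows lie on the plus strand at chr22:41832855-41833104, chr7:155297628-155297877, chr1:162790452-162790701 and chr10:100346983-100347232.
SREBF2: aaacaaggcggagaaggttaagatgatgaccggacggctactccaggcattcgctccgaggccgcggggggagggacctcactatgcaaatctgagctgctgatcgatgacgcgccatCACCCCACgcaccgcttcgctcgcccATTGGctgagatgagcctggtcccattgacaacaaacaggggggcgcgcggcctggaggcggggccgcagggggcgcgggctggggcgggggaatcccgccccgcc
INSIG1: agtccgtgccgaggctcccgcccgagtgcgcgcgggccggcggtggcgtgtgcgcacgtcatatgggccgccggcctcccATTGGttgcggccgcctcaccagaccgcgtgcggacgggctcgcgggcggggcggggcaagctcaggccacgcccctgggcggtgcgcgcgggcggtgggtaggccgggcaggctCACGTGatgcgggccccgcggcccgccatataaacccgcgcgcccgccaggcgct
HSD17B7: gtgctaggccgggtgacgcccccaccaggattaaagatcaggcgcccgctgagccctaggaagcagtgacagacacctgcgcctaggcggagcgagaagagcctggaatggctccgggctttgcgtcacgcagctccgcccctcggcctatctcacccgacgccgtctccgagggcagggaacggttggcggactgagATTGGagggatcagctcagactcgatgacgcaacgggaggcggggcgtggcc
SCD: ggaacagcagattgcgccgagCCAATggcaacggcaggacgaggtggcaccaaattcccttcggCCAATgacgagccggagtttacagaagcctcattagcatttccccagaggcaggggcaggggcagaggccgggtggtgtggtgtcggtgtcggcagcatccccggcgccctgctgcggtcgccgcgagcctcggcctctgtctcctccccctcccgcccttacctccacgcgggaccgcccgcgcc

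The 33 genes were strongly expressed and took a nearly constant share of each library. Their summed level was between 9376 and 9581 CPM, or 0.93% to 0.95% of a library, with no separation of the groups. In 32 of them the mean was 10 CPM or more, and only ABCG1 lay below. Divided by transcript length, 30 of the 33 exceeded the median of 12928 genes of known length that averaged 1 CPM or more (8.37 CPM per kilobase in control cells), and the median of the 33 was 44.7 CPM per kilobase. SCD, the desaturase that makes oleic acid, was the most abundant per length at 479 CPM per kilobase (rank 107). FDPS, which makes farnesyl diphosphate, followed at 229 (rank 237), FADS2 at 193 (rank 278), MSMO1 at 167 and ACLY at 152 (rank 381). The lowest levels per length were those of the 3 LXR targets, MYLIP at 5.20, ABCA1 at 2.73 and ABCG1 at 0.348 CPM per kilobase.

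**Figure D1:**
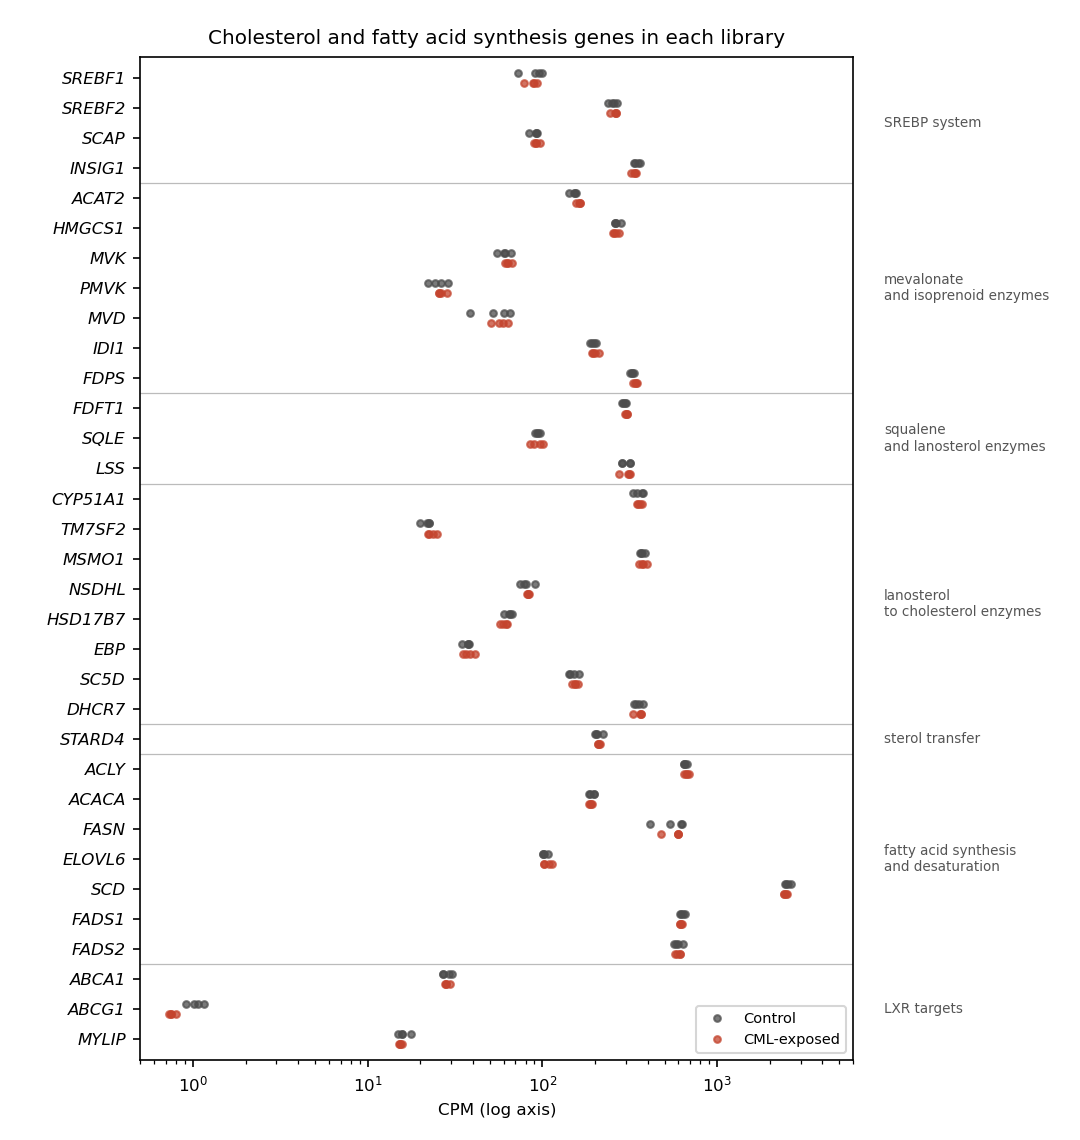
CPM of each of the 33 genes (log axis) in the 4 control libraries (grey) and the 4 CML libraries (red), with 1 point per library and lines between the role groups. SCD lies highest, at 2410 to 2633 CPM, ABCG1 lies lowest, at 0.731 to 1.15 CPM, and only ABCG1 and ACAT2 show no overlap between the groups.

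Levels of these genes in CML-exposed cells lay close to those in control cells. In the limma comparison of log2(CPM + 1), which understates changes of genes with few reads, 1 of the 33 genes passed the study's FDR of 0.3. This was ABCG1, a cholesterol exporter, which fell (3.03% of the genes, beside 0.895% of all 17649 genes that passed and 0.221% that passed with a lower mean after exposure). No gene of the whole table passed at an adjusted p of 0.05 (with a minimum mean of 1 CPM 36 genes did, 0.276% of those tested, none of them among the 32 members tested), while 3 of the 33 (ACAT2, FDPS and ABCG1, 9.09%) had an unadjusted p under 0.05, against 7.66% of all genes. The groups did not overlap for ACAT2 and ABCG1, 2 of 33 (6.06%), against 3.78% of all genes. The median log2 fold change of the 33 was 0.02, with 22 genes higher and 11 lower in mean, beside a median of 0.01 over all genes. With each library centred on its median, the median was 0.001, and 17 genes were higher and 16 lower in mean.

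The precision of these comparisons was set against a limit of 0.2 on the log2 scale, which is 1.15-fold. For 26 of the 33 genes the 95% interval of the difference lay wholly within that limit on either side of 0, so that larger changes were outside the interval. It extended past the limit for SREBF1, MVK, PMVK, MVD, TM7SF2, FASN and ABCG1. The interval width had a median of 0.20 and ran from 0.087 to 0.77.

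**Figure D2:**
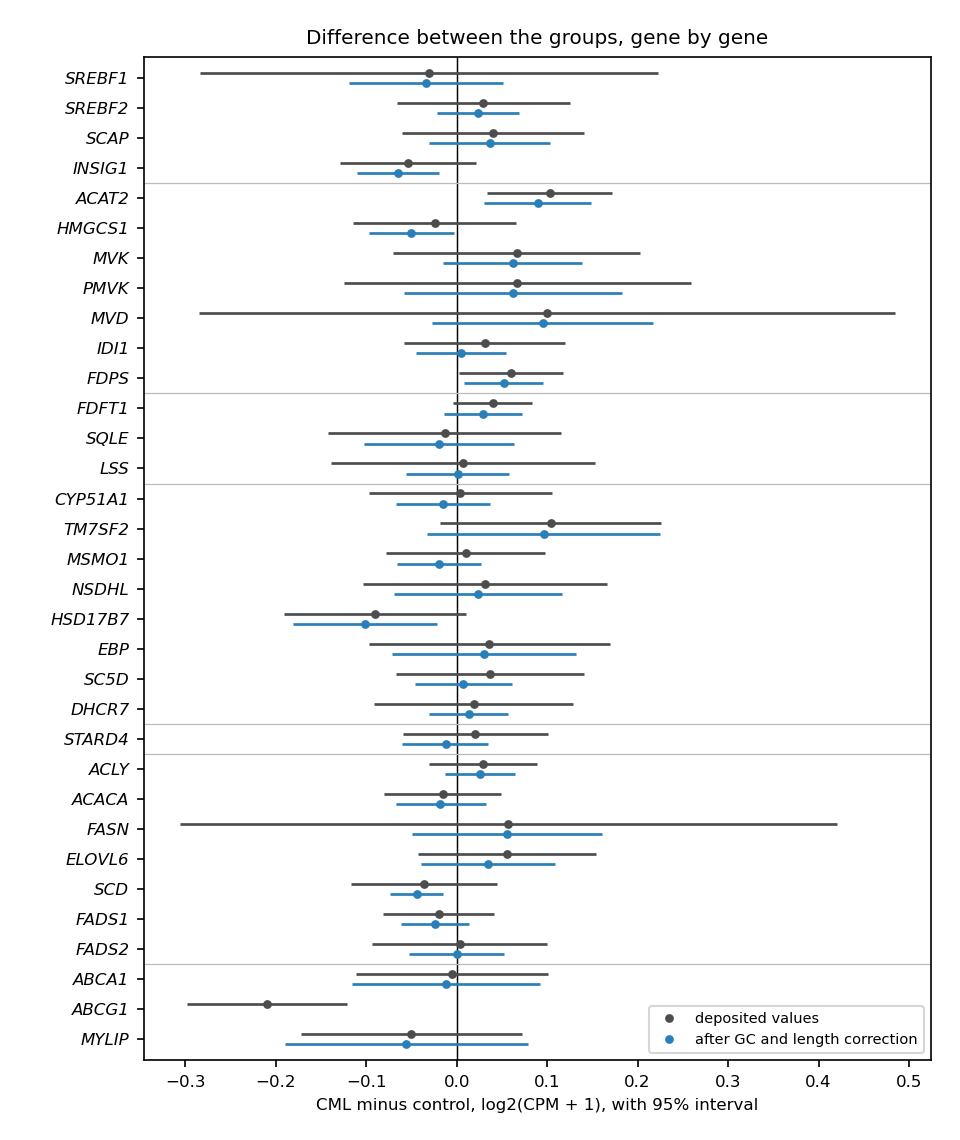
Difference between CML-exposed and control cells for each gene on the log2(CPM + 1) scale, with its 95% interval, from the deposited values (grey) and after correction of each library for GC content and transcript length (blue; ABCG1 was too low to be included). Most intervals span 0, the widest are those of MVD, FASN and SREBF1, and these 3 narrow most in the corrected values.

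The widest intervals belonged to the most GC-rich transcripts, MVD (65.5% GC), FASN (65.3%) and SREBF1 (63.2%), while the GC content of the 33 ran from 34.4%. FASN, the fatty acid synthase, stood at 632, 619.6, 534 and 410.3 CPM in control libraries 1 to 4 and at 599.9, 595, 593 and 474 CPM in CML libraries 1 to 4. Library 4 was the lowest of each group and the groups overlapped. MVD, which decarboxylates mevalonate diphosphate, stood at 64.9, 60.6, 52.3 and 38.7 CPM in control and at 59.0, 56.1, 63.2 and 50.6 CPM in CML-exposed cells. Here, too, library 4 was the lowest of each group. Across the 33 genes, the deviation of control library 4 from the mean of the other 3 control libraries had a Pearson correlation of −0.841 (Spearman −0.888) with GC content, and that of CML library 4 one of −0.804 (Spearman −0.823). The 33 points of a panel share the same libraries, and the correlation is a description. Of the 11 genes with over 55% GC, 11 were lower in control library 4 and 10 in CML library 4, and the 8 genes with under 45% GC were all higher in both. Over all genes that averaged 1 CPM or more, the Spearman correlations were −0.591 and −0.533. The labels name no batch per library. They do name NextSeq in one field and HiSeq in another, the same for all libraries, while the paper's methods name HiSeq. What sets the libraries numbered 4 apart was not tested.

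**Figure D3:**
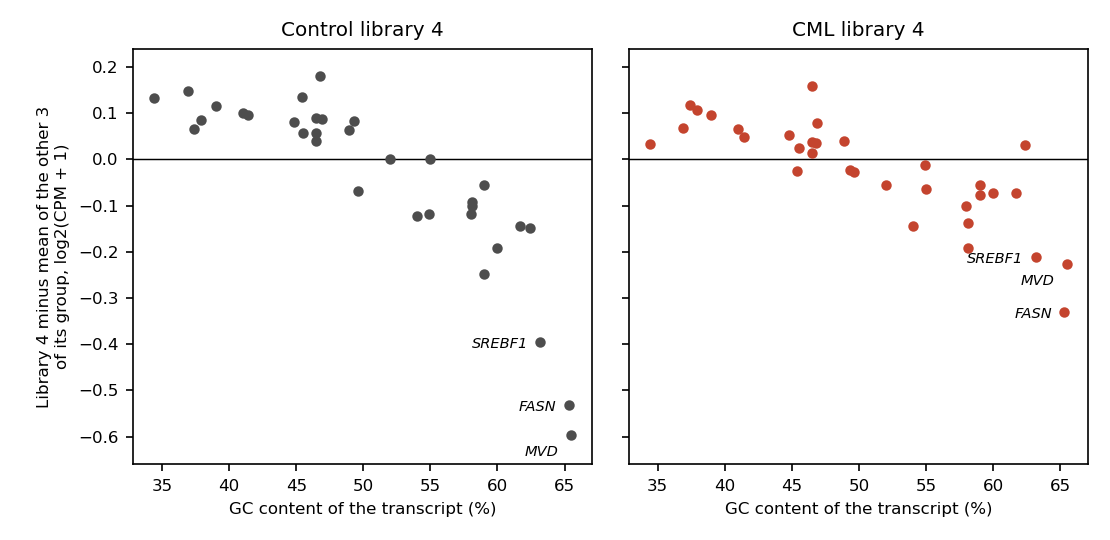
Deviation of library 4 from the mean of the other 3 libraries of its group (log2(CPM + 1) scale) against the GC content of the transcript, for the control group (left) and the CML group (right), with 1 point per gene (n = 33). GC-rich genes such as FASN, MVD and SREBF1 lie below 0 in both panels and GC-poor genes lie above.

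Within the SREBP system, 2 genes were higher and 2 lower in mean and none passed the FDR of 0.3. SREBF1, which encodes the SREBP-1 factor that drives fatty acid genes, stood at 99.1, 95.8, 91.1 and 72.2 CPM in the control libraries and at 89.9, 88.6, 92.5 and 77.9 CPM in the CML libraries. The lowest value of each group was that of library 4, and the log2 difference of −0.03 had a 95% interval of −0.284 to 0.223 (limma, adjusted p = 1.0). SREBF2, which encodes the SREBP-2 factor that drives cholesterol genes, stood at 266, 249.9, 258 and 238 CPM in control and at 259.7, 264, 264 and 245 CPM in CML-exposed cells. The difference was 0.03 (interval −0.066 to 0.125, limma, adjusted p = 0.959), and the groups overlapped. SCAP, the escort of the SREBPs, had 93.3, 92.2, 91.3 and 83.4 CPM in control and 92.4, 91.4, 97.4 and 89.1 CPM in CML libraries, a difference of 0.04 (interval −0.060 to 0.141, limma, adjusted p = 0.914). INSIG1, the sterol-dependent retention protein of SCAP and itself an SREBP target, had the largest negative difference of the 4. It stood at 336, 352, 338 and 361 CPM in control and at 319.8, 335, 337 and 343 CPM in CML-exposed cells. Each of CML libraries 1 and 2 lay below all control libraries, the other two did not, and the difference of −0.05 had an interval of −0.129 to 0.021 (limma, adjusted p = 0.794).

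Among the 7 enzymes of the mevalonate and isoprenoid steps, 6 were higher in mean with CML, with a median difference of 0.07. None passed the FDR of 0.3. The 6 were also higher with median-centred libraries, quantile normalization, the GC correction and without both libraries numbered 4. Without those 2 libraries the difference shrank to 0.008 for MVD, 0.019 for PMVK, 0.037 for MVK and 0.026 for IDI1. For ACAT2 it was then 0.111 and for FDPS 0.077. Without control library 4 alone, MVD was lower in mean (−0.049). The largest difference was that of ACAT2, which joins 2 acetyl-CoA to acetoacetyl-CoA at the entry of the pathway. It stood at 151, 142, 153 and 155 CPM in control libraries (150.2 ± 5.37, SD, n = 4) and at 162, 164, 156 and 163 CPM in CML libraries (161 ± 3.56, SD, n = 4). Every CML library lay above every control library, and the log2 difference was 0.10 (interval 0.034 to 0.172, limma, adjusted p = 0.426), so that ACAT2 did not pass the threshold over all genes. The gene lies at chr6:159762045-159779112 (GRCh38.p14) and overlaps TCP1 and SOD2 in position. Because strand-specific counting is not stated for these libraries, reads of the overlap cannot be assigned with certainty. TCP1 had a difference of 0.07 (limma, adjusted p = 0.554) and SOD2 one of 0.08 (limma, adjusted p = 0.381). FDPS stood at 334, 316, 325 and 325 CPM in control and at 338, 348, 343 and 328 CPM in CML-exposed cells, a difference of 0.06 (interval 0.003 to 0.118, limma, adjusted p = 0.623). Control library 1 lay above CML library 4, so the groups overlapped. HMGCS1, which makes HMG-CoA, was the only one of the 7 that was lower in mean. It had 259, 259, 264 and 283 CPM in control and 263, 256, 252 and 275 CPM in CML libraries, a difference of −0.02 (interval −0.115 to 0.066, limma, adjusted p = 0.971). The remaining enzymes MVK, PMVK and IDI1 had differences between 0.03 and 0.07, all with intervals that included 0, and MVD one of 0.10 with the widest interval of all, −0.285 to 0.485.

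The 3 enzymes that form squalene and lanosterol had differences close to 0, with 2 of 3 higher in mean (1 of 3 with median-centred libraries or quantile normalization), and none passed. FDFT1, the squalene synthase, was highest at 0.04 (interval −0.004 to 0.083, limma, adjusted p = 0.697), with 287, 298, 288 and 299.5 CPM in control and 298, 305, 299.9 and 304 CPM in CML libraries. The groups overlapped through control libraries 2 and 4. SQLE, the squalene epoxidase, was lowest at −0.01 (interval −0.142 to 0.115, limma, adjusted p = 1.0). Its control values of 90.8, 93.0, 94.0 and 96.4 CPM lay inside the range of the CML values of 84.5, 90.0, 96.3 and 101 CPM. LSS, the lanosterol synthase, had a difference of 0.01 (interval −0.139 to 0.153).

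From lanosterol to cholesterol, 7 of 8 enzymes were higher in mean (4 of 8 with median-centred libraries or quantile normalization, 5 of 8 after GC correction), with a median difference of 0.025, and none passed. TM7SF2, a sterol C14 reductase, had the largest positive difference of the 33 genes, 0.104 (interval −0.018 to 0.226, limma, adjusted p = 0.731), beside 0.103 for ACAT2. TM7SF2 stood at 22.3, 21.8, 22.3 and 19.9 CPM in control and at 22.3, 22.3, 24.9 and 23.6 CPM in CML-exposed cells. In 2 CML libraries it lay within the range of the controls. Without both libraries numbered 4 its difference was 0.059, below those of ACAT2 (0.111), FDPS (0.077) and ELOVL6 (0.068). HSD17B7, a sterol 3-keto reductase, had the largest negative difference of this group. Its values were 60.4, 64.0, 65.1 and 67.2 CPM in control (64.2 ± 2.83, SD, n = 4) and 56.9, 62.1, 59.1 and 62.7 CPM in CML libraries (60.2 ± 2.71, SD, n = 4). Control library 1 lay among the CML values, and the difference of −0.09 had an interval of −0.191 to 0.010 (limma, adjusted p = 0.706). The pseudogene HSD17B7P2 was counted at 4.50 CPM in control and 4.37 CPM in CML-exposed cells. HSD17B7 values were whole reads in 6 of 8 libraries and EBP values in 5 of 8, within a tolerance that widens with the read count. At high read counts every value lies within it, so the measure does not set these genes apart from the others. Reads may be split between HSD17B7 and its pseudogene, which was not tested. CYP51A1, MSMO1, NSDHL, EBP, SC5D and DHCR7, which carry out demethylation, isomerisation, desaturation and the final reduction steps, had differences between 0.00 and 0.04. STARD4, which carries cholesterol between membranes, stood at 199, 203, 204 and 222 CPM in control and at 207, 208, 209.9 and 213 CPM in CML libraries. The difference was 0.02 (interval −0.059 to 0.101, limma, adjusted p = 0.977). Control library 4 lay above all CML libraries and the other 3 control libraries below them, and without control library 4 the gene passed the FDR of 0.3 (limma, adjusted p = 0.294), as did ACAT2 and ABCG1, 3 of 33 beside 3.91% of all genes. STARD4, at 34.4% GC, did not pass without both libraries numbered 4 (0.05, limma, adjusted p = 0.393). After GC correction its difference was −0.01 (limma, adjusted p = 0.909), and with both changes 0.005 (limma, adjusted p = 0.974).

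In fatty acid synthesis and desaturation, 4 genes were higher and 3 lower in mean (3 and 4 with median-centred libraries or after GC correction), with a median of 0.00, and none passed. FASN had the highest difference of the 7, 0.06, with an interval of −0.306 to 0.420 that covered changes of either sign. SCD had the lowest, −0.04 (interval −0.117 to 0.045, limma, adjusted p = 0.901). Its values were 2427, 2464, 2531 and 2633 CPM in control and 2410, 2471, 2426 and 2499 CPM in CML-exposed cells, with overlap. ACLY, which makes cytosolic acetyl-CoA, and ACACA, which makes malonyl-CoA, differed by 0.03 (interval −0.030 to 0.089) and −0.02 (interval −0.080 to 0.049). ELOVL6, an elongase of saturated fatty acids, differed by 0.06 (interval −0.043 to 0.154). FADS1 and FADS2, the desaturases of polyunsaturated fatty acids, overlap in position on chromosome 11 and differed by −0.02 (interval −0.081 to 0.041) and 0.00 (interval −0.093 to 0.1). None of these 5 genes passed the threshold.

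All 3 LXR targets were lower in mean with CML (ABCA1 was higher without both libraries numbered 4), and ABCG1 alone passed. ABCG1 (ENSG00000160179.18, chr21:42199689-42297244 in GRCh38.p14), which exports cholesterol to HDL, stood at 1.01, 1.06, 1.15 and 0.912 CPM in control libraries and at 0.753, 0.802, 0.731 and 0.747 CPM in CML libraries. Every CML library lay below every control library, and the log2 difference was −0.21 (interval −0.298 to −0.121, limma, adjusted p = 0.189). The call was lost when any 1 library other than control 4 was left out (limma, adjusted p from 0.31 without control 3 to 0.434 without CML 2), and also when same-numbered libraries were treated as a block (adjusted p = 0.333 by limma) or with median-centred libraries (adjusted p = 0.324). Without control library 4 it held (limma, adjusted p = 0.106). These values rest on few reads, an estimated 17, 18, 19 and 16 in the control and 13, 15, 12 and 12 in the CML libraries. Summed, 70 reads compared with 52, a ratio of 0.735 after division by normalized library size. Its 95% interval for counting error alone was 0.504 to 1.068, which included 1. The reads of the 4 control libraries varied with a CV of 7.4%, and counting error alone gives 23.9%. In the CML libraries these were 10.9% and 27.7%, so the spread between libraries that the test used was smaller than the counting error. ABCA1, which exports cholesterol and phospholipid to apolipoprotein A-I, was measured at a far higher level. It stood at 27.1, 26.9, 29.1 and 30.5 CPM in control and at 29.4, 27.8, 28.0 and 27.9 CPM in CML-exposed cells. Its difference was 0.00 with an interval of −0.111 to 0.101 (limma, adjusted p = 1.0). MYLIP, a ubiquitin ligase that LXR induces, had 15.8, 14.8, 15.7 and 17.6 CPM in control and 15.3, 15.4, 15.1 and 15.7 CPM in CML libraries, a difference of −0.05 (interval −0.172 to 0.072, limma, adjusted p = 0.91). For both genes the groups overlapped.

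**Figure D4:**
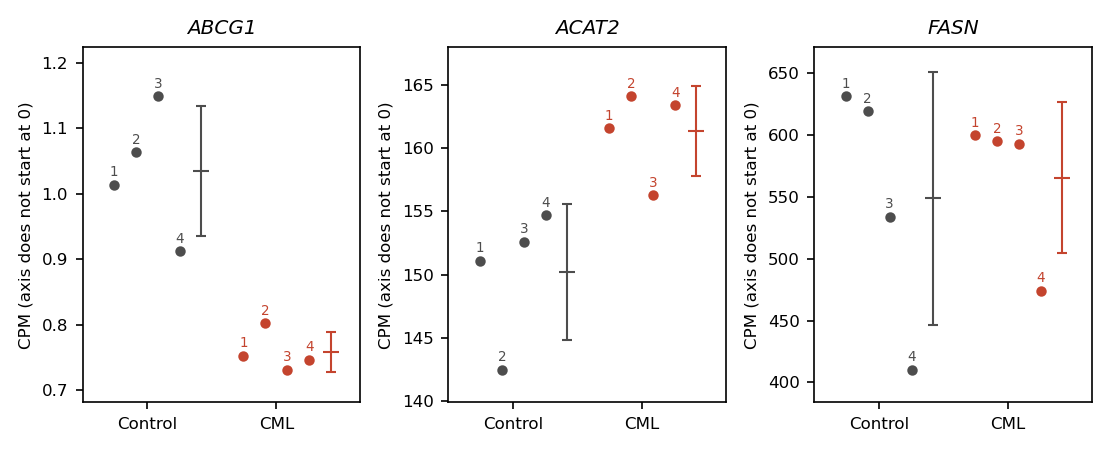
CPM of ABCG1, ACAT2 and FASN in each library (the digit is the replicate number), with mean and SD beside the points (n = 4). The groups are apart for ABCG1 and ACAT2, and library 4 is the lowest FASN value of both groups. The axes do not start at 0.

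With both libraries numbered 4 left out, ABCG1 was the 1 gene of the 33 that passed the FDR of 0.3 (limma, adjusted p = 0.203), beside 1.82% of all genes. A correction then took out of each library a trend of its values with the GC content and length of the transcripts. The trend was fitted over all genes tested, so a single gene could keep part of its deviation. The correction also aligned the libraries' mean levels. With it, 32 of the 33 genes remained and 4 of them passed (12.5%), beside 6.78% of the 12928 genes tested. ACAT2 rose (1 of 32, beside 4.26% of all genes), and INSIG1, HSD17B7 and SCD fell (3 of 32, 9.38%, beside 2.51%). The corrected log2 difference of ACAT2 was 0.09 (interval 0.030 to 0.149, limma, adjusted p = 0.162). It was −0.06 for INSIG1 (interval −0.110 to −0.019, limma, adjusted p = 0.196), −0.10 for HSD17B7 (interval −0.181 to −0.022, limma, adjusted p = 0.267) and −0.04 for SCD (interval −0.074 to −0.015, limma, adjusted p = 0.163), whose difference was 0.02 with quantile normalization in place of the correction. The groups did not overlap in the corrected values of ACAT2, FDPS, INSIG1, HMGCS1 and SCD, 5 of 32 (15.6%) beside 6.96% of all genes. FDPS (0.05, limma, adjusted p = 0.317) and HMGCS1 (−0.05, limma, adjusted p = 0.394) did not pass. The median interval width fell to 0.11, and for 30 of 32 genes the interval then lay within 0.2 of 0, the exceptions being MVD and TM7SF2. FASN, corrected, had an interval of −0.049 to 0.161 and SREBF1 one of −0.119 to 0.051. Control library 4 was still the lowest control library for both and for MVD in the corrected log2 values. It stood at 8.88 for FASN (9.07 to 9.20 in the others), 6.35 for SREBF1 (6.52 to 6.56) and 5.54 for MVD (5.77 to 5.89). CML library 4 was still the lowest of its group for FASN and SREBF1 but not for MVD. At an adjusted p of 0.05 none of the 32 passed by limma, beside 173 genes (1.34%) of those tested, and ABCG1 could not be included. With the correction and without both libraries numbered 4, 3 of 32 passed (9.38%, beside 4.92% of all genes). These were ACAT2 (limma, adjusted p = 0.267), FDPS (limma, adjusted p = 0.261) and SCD (limma, adjusted p = 0.298). INSIG1 (−0.07, limma, adjusted p = 0.344) and HSD17B7 (−0.10, limma, adjusted p = 0.426) no longer passed.

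**Figure D5:**
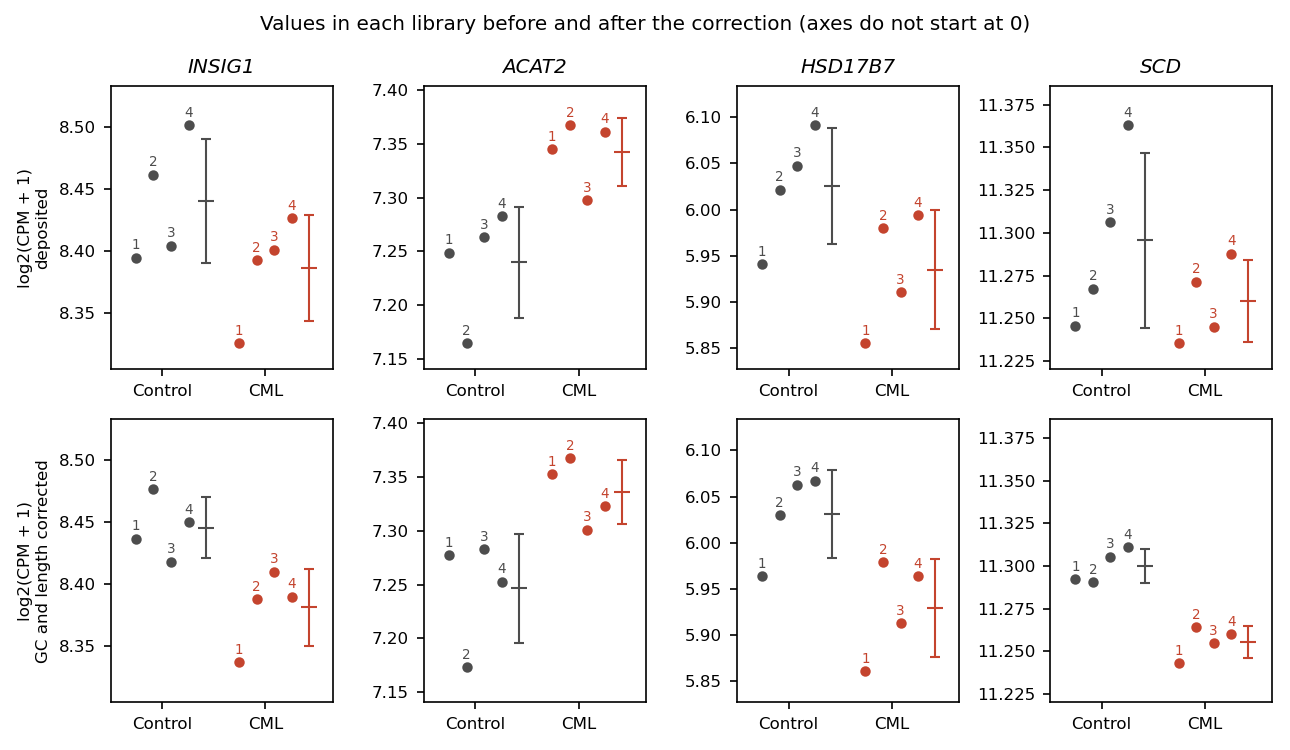
Values of INSIG1, ACAT2, HSD17B7 and SCD in each library on the log2(CPM + 1) scale, as deposited (upper row) and after GC and length correction (lower row), with mean and SD (n = 4). The correction draws control library 4 toward its group for INSIG1 and SCD. The groups of both, which overlapped through control libraries other than library 4, are apart in the corrected values. The axes do not start at 0.

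The other genes of the pathway were taken from 4 lists. Of 84 listed genes 82 were measured, none passed the FDR of 0.3 and 6 had an unadjusted p under 0.05, beside 7.66% of all genes. Higher in mean were 13 of 17 regulators of SREBP activity, 7 of 13 genes of the isoprenoid branch, 16 of 29 partners of fatty acid synthesis and 11 of 23 genes of sterol transport and LXR. With median-centred libraries these counts were 10, 2, 13 and 8. Among the regulators, NFYC, a subunit of NF-Y, had 50.8 to 56.8 CPM in control and 56.5 to 60.3 CPM in CML libraries, a difference of 0.13 (interval 0.034 to 0.233, limma, adjusted p = 0.489). TMEM97, a sterol-regulated membrane protein, differed by 0.07 (limma, adjusted p = 0.586). In the isoprenoid branch, FNTB, a farnesyltransferase subunit, differed by 0.11 (limma, adjusted p = 0.623) and SRD5A3, a polyprenol reductase, by −0.09 (limma, adjusted p = 0.788). Of the partners of fatty acid synthesis, LPIN1 had the smallest p. LPIN1, a phosphatidate phosphatase of lipid synthesis and an SREBP target, stood at 171, 172, 182 and 187 CPM in control and at 162, 163, 162 and 164 CPM in CML libraries. All CML libraries lay below all control libraries, and the difference was −0.13 (interval −0.197 to −0.054, limma, adjusted p = 0.355). The elongase ELOVL2 was at 0 in all CML libraries and at or under 0.119 CPM in control, which is at most 2 reads, and no fold is given. In sterol transport, LBR, another sterol C14 reductase, differed by 0.09 (limma, adjusted p = 0.673) and CH25H, which makes 25-hydroxycholesterol, by −0.16 (limma, adjusted p = 0.789) at 0.427 to 1.03 CPM. After GC and length correction 2 of the 75 listed genes that could be tested passed, beside 6.78% of all genes, NFYC (0.13, limma, adjusted p = 0.178) and LPIN1 (−0.13, limma, adjusted p = 0.0051). With the correction and without both libraries numbered 4, LPIN1 passed and NFYC did not.

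Some cell cycle genes rose with CML. Of 16 listed proliferation genes 7 passed the FDR of 0.3 as higher, beside 0.674% of all genes, and all 16 were higher in mean, with a median log2 fold change of 0.21. Their summed level was 743 to 811 CPM in control and 893 to 924 CPM in CML libraries. Their part in the differences of the synthesis genes was not tested.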

How the data were processed

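RNA-Seq of 4 control and 4 CML-exposed libraries of MDA-MB-231 cells was analysed. The authors deposited CPM values, 1 column per library, with sums between 986730 and 1014124. The submitters' processing notes name edgeR and hg38. For the tumors, sequenced on another instrument, the methods describe a stranded kit and Tophat. Whether these apply to the cell line libraries, and which counting tool and strand setting were used, is not given in the sources used here. NextSeq and HiSeq are both named in the labels, and the paper's methods name HiSeq for the CML experiment. Nothing says that replicates came from separate cultures, so p-values measure the spread between these libraries, which may be technical.

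The table's 17681 rows were averaged by symbol to 17649 genes. Groups were compared on log2(CPM + 1) by limma (3.58.1, R 4.3.3) with a variance trend and no covariates, and p-values were adjusted over the whole table (Benjamini-Hochberg), at FDR 0.3 (the study's) and 0.05. The procedure was tested on simulated data. Of the values above 0 and under 200 reads, 81.1% to 82.1% per library were whole reads within 0.02, so no count test was run across the genes. For ABCG1 alone, an interval for counting error was taken from its estimated reads. GC content and length came from canonical GENCODE transcripts, and positions and promoters from RefSeq (GRCh38.p14). The correction removed natural splines (4 degrees of freedom each) of GC content and log2 length from each library's deviations, for 12928 genes that averaged 1 CPM or more. Python 3.11.15 and matplotlib 3.10.9 drew the figures.

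The 33 genes, the lists and the tests were chosen with earlier results of these data known. Full values are given for genes that passed FDR 0.3 or whose groups did not overlap, for the SREBP system and the LXR targets, and for the highest and lowest difference of each role group. Of the other lists, genes that passed and the 2 with the smallest p are named. Further values, such as those of MVD, FDPS, overlapping genes, a pseudogene and the marker genes, were singled out after they were seen. Some listed genes were not analysed here. The alternatives changed the pseudocount (0.1), the filter (a mean of 1 CPM), the averaging of rows, the scaling (median-centred, quantile), the variance trend, the block of replicate numbers, the GC and length correction, and the libraries, each left out in turn. Leaving out both libraries numbered 4, with and without the correction, was chosen after seeing the data.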

Additional observations from a re-analysis of the deposited data

Results flagged for a closer look

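In the CML group, the DHCR7 level of library 4 (331 CPM) stood far below the other 3 libraries (363 to 365 CPM). FASN in the same library (474 CPM) also stood below the other 3 (593 to 599.9 CPM). ABCA1 in CML library 1 (29.4 CPM) stood above the other 3 libraries (27.8 to 28.0 CPM). Among the control libraries, library 4 had more estimated reads (17729460) than the other 3 (16559944 to 16690336). These 4 values were found among 68 groups of 4 libraries, in which chance alone gives about 1 in 20, or 3.4. DHCR7 (58.1% GC) and FASN (65.3% GC) are GC-rich genes in a library whose levels fell with GC content, so their values are not independent of each other.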

How the results depend on the processing

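Of 623 single-gene values of the 33 genes under 19 alternatives, 600 stayed on the same side of the FDR of 0.3 and within the replicate spread or in the same direction, 9 lost a call, 13 gained one and 1 moved beyond the replicate SD. A change of sign occurred in 63 values of 19 genes, none of which was called in either comparison, and the cause was not tested. The count of genes past the FDR of 0.3 over the whole table was 158 (119 higher and 39 lower). It was 73 (46 and 27) with median-centred libraries, 876 (551 and 325) after GC and length correction, 321 without both libraries numbered 4, 636 with both of these, and between 20 and 690 when 1 library was left out. Quantile normalization gave 144 (90 and 54). Of the 33 genes, 1 passed. With a minimum mean of 1 CPM (which removes ABCG1) or median-centred libraries it was 0. It was 4 after the correction, 3 with the correction and without both libraries numbered 4, and between 0 and 3 with 1 library left out. Of the pathway lists 0 genes passed, with quantile normalization 1, after the correction 2, after the correction without both libraries numbered 4 it was 1, and with 1 library left out 0 to 1. The median difference of 0.021 became 0.001 with median-centred libraries, 0.0 with quantile normalization (under which SCD turned from −0.04 to 0.02, not passing in either), 0.006 after the correction, and 0.005 to 0.032 with 1 library left out. The number of genes whose groups do not overlap was 2. It was 1 with a minimum mean of 1 CPM or median-centred libraries, 5 after the correction, 5 without both libraries numbered 4, 6 with both of these and 2 to 4 with 1 library left out. Over the whole table the count was 667 of 17649 genes, and 2438 of 17649 without both libraries numbered 4. After the correction it was 900 of 12928, and 2029 of 12928 with both of these. With 1 library left out it was 1041 to 1692 of 17649.

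The replicate numbers are shared by the groups, but same-numbered libraries deviated together with correlations of 0.199, −0.03, −0.065 and 0.334 for numbers 1 to 4. Not every pair exceeded 0.1, so the numbers were not taken as pairs. As a hint from the data, control 1 and control 4 correlated best with their own number, and control 2 and control 3 did not. With the replicate block 189 genes passed in the whole table, 0 of the 33 and 0 of the pathway lists. With the correction and the replicate block these were 935, 4 and 3 (NFYC, LPIN1 and NR1H2), and the median difference was 0.006.

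Depth limits ABCG1, with at most 19 reads in a library, and other genes near 1 CPM.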
